A study of Homo sapiens with 4 samples.

Results

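Heat shock proteins and their J-domain cochaperones were examined in K562 cells with a stable short hairpin RNA against KLF3 and in K562 cells with a stable control hairpin. K562 is a human erythroleukemia line that carries the BCR-ABL fusion, and KLF3 is a transcriptional repressor that binds CACCC-type sequences. Genes were chosen by their current symbol alone: those starting DNAJA, DNAJB, DNAJC, HSPA, HSPB with a digit, or HSP90, together with HSPD1, HSPE1, HSPH1, HSF1 and HSF2. The rule found 75 of the 20045 genes that the array annotation names, on 115 of 47322 probes; no probe was named HSF2. The series holds 4 Illumina bead arrays of total RNA, 2 arrays of the KLF3 knockdown line and 2 of the control line, the second array of each being called a repeat. Both lines carry a hairpin vector and were grown in the same medium. Each group is 1 stable line measured in duplicate. Whether the duplicates were separate cultures is not stated, so the p-values reflect array-to-array spread within a line, part or all of which may be technical.

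Chaperones bind unfolded proteins and keep them from clumping. HSP70 proteins do so in cycles of ATP hydrolysis: a J-domain protein delivers the client and starts hydrolysis, and an exchange factor such as an HSP110 protein then releases it. HSP90 takes over clients such as kinases, BCR-ABL among them, and the HSP60 and HSP10 chaperonin folds proteins inside mitochondria. HSF1, the main heat shock factor, drives the inducible members through heat shock elements, inverted repeats of the unit GAA in their promoters. In red cell precursors HSP70 is known to shield GATA1 from caspase cleavage.

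A gene counted as measured where at least 1 of its probes had a detection p under 0.01 on both arrays of a group, and the brightest such probe stood for it. Of the 75 genes 51 were measured, 48 of them detected on all 4 arrays, out of 9530 measured genes in all. Between 15479 and 16182 probes were detected on each array. Signals are normalized log2 intensities after background correction, differences are knockdown minus control, and a gene rose or fell where the adjusted p of limma, a linear model with pooled variances (Benjamini-Hochberg over all 9530 genes), was under 0.05. Values after ± give the SD of the 2 arrays in each group (n = 2), and SE is the standard error of the fit. Neither KLF3 probe was detected. One of them read 139 and 139.4 on the knockdown arrays and 129.6 and 143.4 on the control arrays, and the other read 127.8 and 121.2 against 125.4 and 117.9, so the arrays give no check of the depletion. Of the listed K562 erythroid markers all 8 with a probe were detected on every array, with a summed background-corrected signal of 64000 to 64500 in the knockdown line and 37500 to 38300 in the control line. The globin genes HBZ, HBE1 and HBG1 rose, by 2.25, 1.84 and 0.55. The other erythroid markers did not pass. HBG2, EPOR and TAL1 differed by 0.28, 0.21 and 0.2, and GATA1 and BCR by -0.14 and -0.18. None of the fibroblast, T cell and endothelial markers was detected on any array. Of 4 epithelial markers EPCAM and KRT8 were detected on every array and KRT5 and CDH1 on none; KRT8 fell by 0.47, and the sums were 1970 to 2190 in the knockdown line and 2160 to 2210 in the control line. Of 3 B cell markers with a probe CD79B was detected on 3 arrays, was measured only through the knockdown arrays, and rose by 0.57. MS4A1 and CD79A were detected on none, and the sums were 58.6 to 69.7 against 29 to 48.8. Of the monocyte markers 2 of 4 were measured. LYZ rose by 1.88. CD14, detected on the knockdown arrays alone and measured only through them, was at least 1.32-fold higher. The summed background-corrected signal of LYZ and CD14 was 710 to 882 in the knockdown line and 203 to 236 in the control line. CSF1R and FCN1 were detected on no array. The part of these marker genes in the chaperone results was not tested.

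In the knockdown line the cytosolic HSP70 genes HSPA8, HSPA1A, HSPA1B and HSPA6 and the J-domain genes DNAJB1 and DNAJA1 fell, by 1.72-fold to 2.27-fold. The J-domain genes DNAJB6 and DNAJC7 also fell, with differences of -0.63 and -0.62. DNAJA2 and DNAJB4 differed by 0.21 and 0.34, without passing. The HSP110 exchange factors, the major HSP90 genes and HSPB1 did not pass the test. HSP90B1, the HSP90 of the endoplasmic reticulum, and DNAJA3, a mitochondrial J-domain protein, rose. Over the 51 measured genes 6 rose and 15 fell. The 15 include HSF1, which passed the detection filter only through the control arrays and so had to be the lower in the knockdown line. Without it 14 of 50 fell. Among those 50, HSPA13 passed the filter only through the control arrays and HSPA7 only through the knockdown arrays. The filter favours the direction of each, and neither rose or fell by the test. Over all 9530 genes 40.0% changed (19.4% rose and 20.7% fell), against 41.2% of the chaperone genes (11.8% rose and 29.4% fell), so that the share changed was near the background. The median difference was -0.094 for the chaperone genes and -0.015 for all genes. DNAJB1, HSPA8, DNAJA1 and HSPA1B, 4 of the 51, fell by at least 2-fold, as did 1.72% of all genes, and 0 chaperone genes rose by as much. The share of all genes that rose by at least 2-fold was not counted, so that 0 has no background beside it. The count of 4 was 1 without background correction and 2 in the authors' processed values, where DNAJB1 and HSPA1B differed by -0.866 and -0.702. Both knockdown arrays lay above both control arrays in 17 chaperone genes (35.3% of all genes) and below them in 24 (38.3% of all genes), and the lines overlapped in the other 10. With array medians scaled in place of quantile normalization, 2 chaperone genes rose and 17 fell, so that 10.5% of the changed chaperone genes were higher in place of 28.6%; among all genes the share was 37.4% in place of 48.3%.

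Promoters of 7 of the 8 chaperone genes with the largest decreases are shown, picked by those decreases and not by their sequence. HSF1 is not shown. Each is the RefSeq window of GRCh38.p14 from 250 bases before to 50 bases after the start of transcription, written 5′ to 3′ on the strand of the gene. Capitals mark the inverted repeat GAANNTTC, where N is any base, alone or as part of the three-unit forms described after the sequences.
HSPA8, chr11:123062087-123062386, minus strand: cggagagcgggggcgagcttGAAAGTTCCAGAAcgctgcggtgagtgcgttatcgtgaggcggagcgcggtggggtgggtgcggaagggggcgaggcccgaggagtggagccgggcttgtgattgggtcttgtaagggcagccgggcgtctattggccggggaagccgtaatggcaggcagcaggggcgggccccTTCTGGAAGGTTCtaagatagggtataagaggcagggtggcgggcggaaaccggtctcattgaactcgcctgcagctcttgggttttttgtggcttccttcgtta
DNAJB1, chr19:14518348-14518647, minus strand: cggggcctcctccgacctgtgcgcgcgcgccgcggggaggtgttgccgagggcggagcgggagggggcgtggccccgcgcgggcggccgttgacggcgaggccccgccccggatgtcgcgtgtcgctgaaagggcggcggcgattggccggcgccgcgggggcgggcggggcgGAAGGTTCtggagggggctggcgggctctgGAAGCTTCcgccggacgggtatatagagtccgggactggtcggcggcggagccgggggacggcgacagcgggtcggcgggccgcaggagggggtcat
DNAJA1, chr9:33025023-33025322, plus strand: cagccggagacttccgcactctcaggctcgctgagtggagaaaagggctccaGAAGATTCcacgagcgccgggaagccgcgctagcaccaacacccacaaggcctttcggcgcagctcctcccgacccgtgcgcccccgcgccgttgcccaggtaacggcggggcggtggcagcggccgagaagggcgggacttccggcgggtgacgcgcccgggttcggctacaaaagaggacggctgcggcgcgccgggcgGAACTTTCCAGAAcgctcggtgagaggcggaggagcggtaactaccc
HSPA1B, chr6:31827488-31827787, plus strand: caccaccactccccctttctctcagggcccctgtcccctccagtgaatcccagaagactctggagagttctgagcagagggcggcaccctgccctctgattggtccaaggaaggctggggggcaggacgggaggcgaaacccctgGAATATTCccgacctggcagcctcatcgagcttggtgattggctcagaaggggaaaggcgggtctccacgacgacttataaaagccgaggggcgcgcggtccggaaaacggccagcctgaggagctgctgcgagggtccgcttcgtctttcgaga
HSPA1A, chr6:31815293-31815592, plus strand: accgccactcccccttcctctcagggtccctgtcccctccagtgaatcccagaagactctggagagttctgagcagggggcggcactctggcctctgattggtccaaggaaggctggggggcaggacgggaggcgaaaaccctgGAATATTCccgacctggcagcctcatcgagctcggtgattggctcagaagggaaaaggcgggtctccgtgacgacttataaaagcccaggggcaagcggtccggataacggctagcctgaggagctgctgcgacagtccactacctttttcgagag
HSPA6, chr1:161524290-161524589, plus strand: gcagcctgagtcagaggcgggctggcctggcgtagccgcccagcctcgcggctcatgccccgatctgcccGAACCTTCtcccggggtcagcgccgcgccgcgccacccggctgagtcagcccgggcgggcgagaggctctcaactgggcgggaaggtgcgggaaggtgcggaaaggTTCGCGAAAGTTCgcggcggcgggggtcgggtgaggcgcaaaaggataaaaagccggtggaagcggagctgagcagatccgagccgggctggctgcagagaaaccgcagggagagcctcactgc
HSPB3, chr5:54455449-54455748, plus strand: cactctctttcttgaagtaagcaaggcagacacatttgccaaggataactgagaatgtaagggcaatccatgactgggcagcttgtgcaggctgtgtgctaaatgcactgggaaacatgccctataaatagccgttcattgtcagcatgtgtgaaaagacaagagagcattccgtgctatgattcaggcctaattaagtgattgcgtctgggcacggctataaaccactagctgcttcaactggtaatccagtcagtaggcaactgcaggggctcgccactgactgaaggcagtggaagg

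HSPA8, DNAJA1 and HSPA6 had 2 inverted repeats each in this window, at least 1 of them extended by a further unit, either NNGAA directly after GAANNTTC or TTCNN directly before it. DNAJB1 has 3 windows in the table, and the one shown holds the most repeats, 2, whose first bases lie at -77 and -47 from the start. HSPA1A and HSPA1B had 1 repeat each, at -106 and -105, and their windows were 92.6% identical over 299 aligned bases. HSPB3, a small heat shock protein of muscle, had none. The search reads letters only: GAANNTTC is its own reverse complement and the longer forms are each other's, so both strands are covered. The units in the other order, TTCNNGAA, were not searched by themselves, so a window without GAANNTTC may still hold them.

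Of the 51 measured chaperone genes 46 had a window in the table; DNAJC1, DNAJC24, HSF1, HSPA7 and HSPA14 did not. GAANNTTC stood in at least 1 window of 8 of the 14 genes that fell, 0 of the 6 that rose and 3 of the 26 that did not pass, and also of 6 of the 20 chaperone genes with a window that were not measured. It stood in 6.31% of the 7841 measured genes with a window and in 6.77% of all 35116 windows, and the longer forms in 0.49% of windows. Genes with several windows have more chances to hold it. The 8 genes that fell with it were HSPA8, HSPA1A, HSPA1B, HSPA6, HSPD1, DNAJA1, DNAJB1 and DNAJB6, and the 3 that did not pass were HSPB1, HSP90AA1 and HSP90AB1. The 11 genes with the repeat had a median difference of -0.784 and lay between -1.18 and 0.03. The 35 without it had a median of 0.044 and lay between -0.877 and 0.762. HSPA1A and HSPA1B, both with the repeat, may not be separate measurements. Over all genes 20.7% fell, and how many of all measured genes with the repeat fell was not counted. The CACCC box, on either strand, stood in a window of 10 of the 14 genes that fell, 4 of the 6 that rose and 15 of the 26 that did not pass, against 69.6% of the measured genes with a window. These matches describe the sequences and were not tested.

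**Figure D1:**
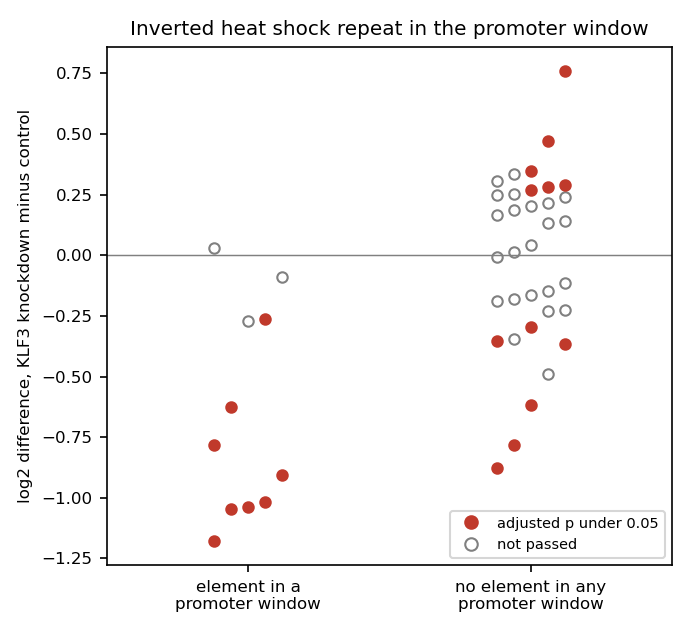
Log2 difference (knockdown minus control, vertical axis) of the 46 measured chaperone genes with a promoter window, split by whether the inverted heat shock repeat stands in any window. The 11 genes with the repeat reach from -1.18 to 0.03 and 8 of them fell (filled points), against 20.7% of all measured genes. Points are spread sideways for legibility.

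Among the HSP70 genes 5 of 9 measured fell and 0 rose, against 20.7% and 19.4% of all genes; HSPA1A and HSPA1B, 2 of the 5, may not be separate measurements. HSPA8, the constitutive cytosolic HSP70 that also uncoats clathrin vesicles, had scanner intensities of 1777.9 and 1758.5 on the knockdown arrays, against 3505.4 and 3789.6 on the control arrays. Both knockdown arrays lay far below both control arrays. Its normalized signal was 10.72 ± 0.05 in the knockdown line and 11.77 ± 0.09 in the control line, a difference of -1.05 (SE 0.09, limma adjusted p = 0.00062) or 2.07-fold lower. A second HSPA8 probe, designed on another transcript, read 10.58 and 10.63 in the knockdown line and 11.51 and 11.56 in the control line, with a difference of -0.93.

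HSPA1A and HSPA1B, neighbouring stress-inducible genes of the same protein on chromosome 6, are so alike in sequence that either probe may read both, and their values are uncertain as separate measurements. The HSPA1A probe read 7.31 and 7.30 on the knockdown arrays and 8.08 and 8.10 on the control arrays, a 1.72-fold decrease (limma adjusted p = 0.00115). The HSPA1B probe read 7.42 and 7.62 against 8.60 and 8.47, a 2.02-fold decrease (limma adjusted p = 0.00119). HSPA6, a strictly inducible HSP70, read 6.06 and 5.92 in the knockdown line and 6.99 and 6.80 in the control line on 1 of its 2 probes. That was a difference of -0.91 (SE 0.10, limma adjusted p = 0.00167), which was -0.387 in the authors' processed values, where no background is removed; the other HSPA6 probe was detected on no array. HSPA7, a pseudogene close in sequence to HSPA6 and measured only through the knockdown arrays, differed by 0.27 near background and did not pass. The groups of each of these genes other than HSPA7 lay well apart, with no knockdown array within 0.5 of a control array.

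Of the organelle members 1 fell. HSPA5, known as BiP, the HSP70 of the endoplasmic reticulum, read 7.98 and 8.05 in the knockdown line and 8.36 and 8.37 in the control line, a difference of -0.35 (SE 0.08, limma adjusted p = 0.0175). It did not pass without control replicate 1 (limma adjusted p = 0.0861), without control replicate 2 (limma adjusted p = 0.0947) or without knockdown replicate 1 (limma adjusted p = 0.0535). HSPA9, the mitochondrial HSP70 mortalin, had a difference of 0.22 (SE 0.09, limma adjusted p = 0.11), with 12.93 and 13.09 against 12.84 and 12.75. HSPA13 and HSPA14 differed by -0.35 and 0.01 and did not pass. The HSPA13 probe was close to background and was measured only through the control arrays. HSPA1L, HSPA2, HSPA12A and HSPA12B were detected on no array.

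The HSP110 proteins release nucleotide from HSP70 and so close its cycle. HSPA4 read 9.08 and 9.42 in the knockdown line and 8.885 and 8.997 in the control line, HSPH1 10.19 and 10.39 against 10.13 and 10.11, and HSPA4L 7.07 and 6.97 against 6.90 and 6.87. In each of the 3 both knockdown arrays lay above both control arrays, as in 35.3% of all genes, but differences of 0.31, 0.17 and 0.13 did not pass (limma adjusted p = 0.1, 0.21 and 0.248). A second HSPA4 probe gave a larger difference, 0.72 (SE 0.09), which passed in a fit over all 15722 detected probes (limma adjusted p = 0.00365). HSPA4 itself passed in 5 of 12 alternatives, among them the mean of its probes and the authors' processed values (limma adjusted p between 0.00565 and 0.35 over the 12).

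**Figure D2:**
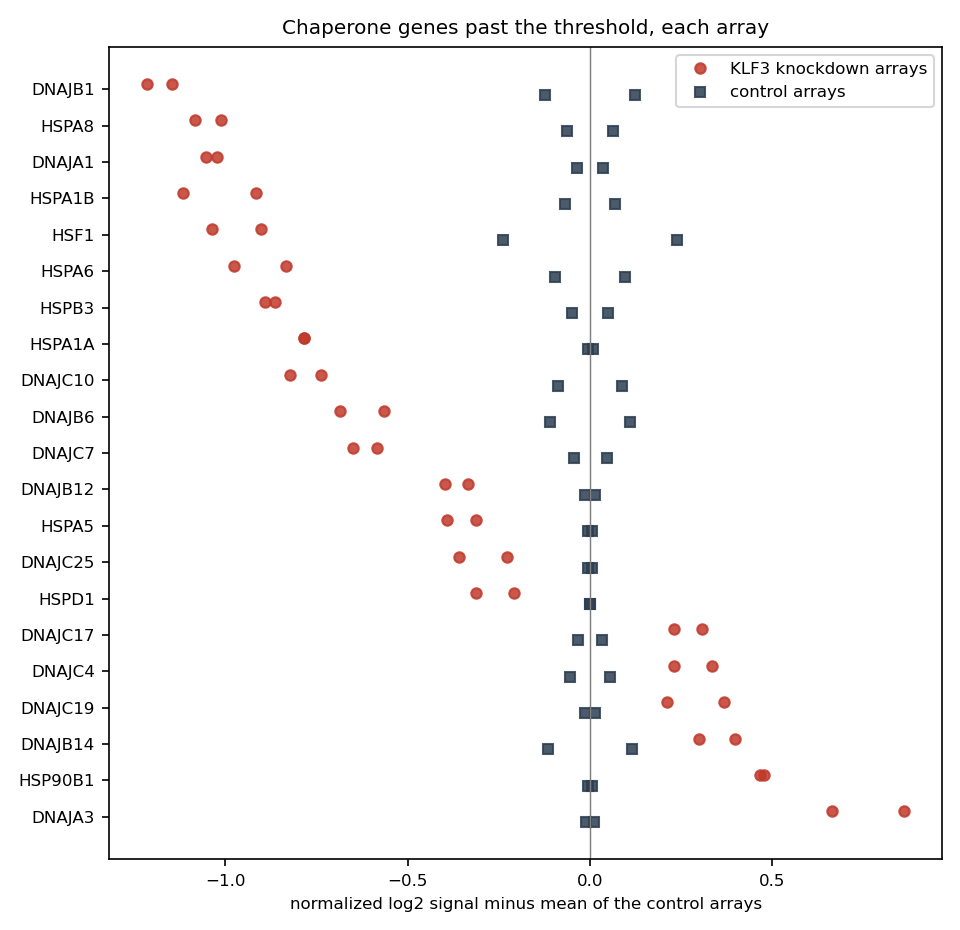
Each array of the 21 chaperone genes that rose or fell: normalized log2 signal minus the mean of the control arrays (horizontal axis), with circles for the 2 knockdown arrays and squares for the 2 control arrays. No knockdown circle overlaps the control squares of its gene, which held for 73.5% of all genes. The genes shown were chosen by the test on these same arrays. DNAJB1, HSPA8, DNAJA1 and HSPA1B lie farthest to the left and DNAJA3 farthest to the right.

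J-domain proteins give HSP70 its clients through a domain that switches on its ATPase. Of 46 such genes on the array 31 were measured, and 5 rose and 7 fell, with a median difference of -0.013. These shares, 16.1% and 22.6%, were near the 19.4% and 20.7% of all genes. In class A, DNAJA1, the cytosolic partner of HSPA8, had intensities of 1741.2 and 1624.8 on the knockdown arrays, against 3329.2 and 3491.9 on the control arrays. Its normalized signal was 10.64 ± 0.02 in the knockdown line and 11.67 ± 0.05 in the control line, 2.05-fold lower (limma adjusted p = 0.000495). DNAJA3, also called TID1, which works in mitochondria, read 11.97 and 12.17 in the knockdown line and 11.32 and 11.30 in the control line. It was 1.70-fold higher (log2 difference 0.76, SE 0.10, limma adjusted p = 0.00233). DNAJA2 read 10.31 and 10.24 against 10.09 and 10.05, a difference of 0.21 that did not pass (limma adjusted p = 0.0914). DNAJA4 was detected on no array.

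In class B, 1 of 8 measured genes rose and 3 fell (12.5% and 37.5%), against 19.4% and 20.7% of all genes. DNAJB1, known as HSP40, the inducible partner of the cytosolic HSP70 proteins, had intensities of 313.6 and 307.5 on the knockdown arrays and 553.6 and 636.6 on the control arrays. At 7.71 ± 0.05 in the knockdown line and 8.89 ± 0.18 in the control line it was 2.27-fold lower (SE 0.11, limma adjusted p = 0.000805). DNAJB6, which holds back aggregation of glutamine-rich proteins, read 8.93 and 8.80 in the knockdown line and 9.60 and 9.38 in the control line, a difference of -0.63 (SE 0.11, limma adjusted p = 0.00606). Its second probe, designed on another transcript, read 8.42 and 8.40 against 9.37 and 9.33, a difference of -0.94. Both probes placed the knockdown arrays below the control arrays.

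DNAJB12 and DNAJB14, paralogs in the membrane of the endoplasmic reticulum, went opposite ways on the probes used. DNAJB12 read 7.53 and 7.47 in the knockdown line and 7.85 and 7.88 in the control line, a difference of -0.37 (SE 0.08, limma adjusted p = 0.0151). Its other 2 measured probes differed by 0.04 and 0.32 and did not pass, and with the mean of the 3 probes the gene differed by -0.004 (limma adjusted p = 0.977). DNAJB14 read 7.84 and 7.94 in the knockdown line and 7.43 and 7.66 in the control line, a difference of 0.35 (SE 0.11, limma adjusted p = 0.041), and 0.56 on a second probe. DNAJB14 lost its call without any 1 of the 4 arrays (limma adjusted p between 0.0533 and 0.216). DNAJB12 did not pass without control replicate 1 (limma adjusted p = 0.0759) or control replicate 2 (limma adjusted p = 0.0888). DNAJB9 and DNAJB11, BiP partners known as ERdj4 and ERdj3, differed by 0.14 and 0.015, and DNAJB2 and DNAJB4 by 0.19 and 0.34, without passing. DNAJB3, DNAJB5, DNAJB7, DNAJB8 and DNAJB13 were detected on no array.

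**Figure D3:**
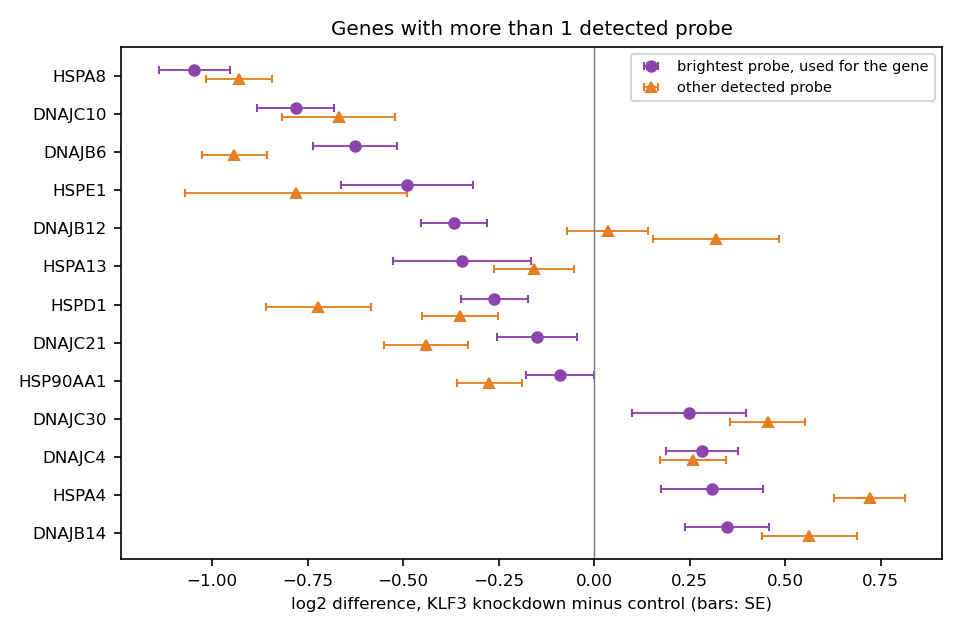
Log2 difference with SE (horizontal axis) of every detected probe of the 13 chaperone genes with more than 1, circles marking the brightest probe and triangles the others. In 12 of the 13 genes the probes share a sign, and in DNAJB12 they do not. The dimmer probes of DNAJC10, DNAJC21 and DNAJC30 and both HSPA13 probes passed the detection filter through 1 group only. The filter favours a higher signal in that group, so the shared signs of these genes are partly built in.

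Class C holds J-domain proteins of many uses. Of its 20 measured genes 3 rose and 3 fell, 15% each, against 19.4% and 20.7% of all genes. DNAJC10, or ERdj5, a disulfide reductase of the endoplasmic reticulum, read 9.13 and 9.04 in the knockdown line and 9.78 and 9.95 in the control line, a difference of -0.78 (SE 0.10, limma adjusted p = 0.00215). Its second probe differed by -0.67, but it passed the detection filter only through the control arrays, which favours a decrease. DNAJC7, which has tetratricopeptide repeats and binds both HSP70 and HSP90, read 9.81 and 9.88 against 10.42 and 10.51, a difference of -0.62 (SE 0.09, limma adjusted p = 0.0031). In both genes the lines lay over 0.5 apart.

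The other changed class C genes moved by less. DNAJC25 fell by 0.29 (limma adjusted p = 0.0385), and DNAJC19, of the mitochondrial import motor, rose by 0.29 (limma adjusted p = 0.0451). DNAJC4 rose by 0.28 (limma adjusted p = 0.0469) and DNAJC17, a spliceosome-associated protein, by 0.27 (limma adjusted p = 0.045). The arrays of each line did not overlap, which held for 73.5% of all genes. Each of these 4 genes lost its call without control replicate 1 and without control replicate 2, with limma adjusted p between 0.105 and 0.223 there. Without knockdown replicate 1 the calls of DNAJC25, DNAJC4 and DNAJC17 were lost too (limma adjusted p = 0.122, 0.0526 and 0.0616), and without knockdown replicate 2 those of DNAJC19, DNAJC4 and DNAJC17 (limma adjusted p = 0.152, 0.147 and 0.128).

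The remaining 14 measured class C genes did not pass and lay between -0.231 for DNAJC14 and 0.254 for DNAJC28. DNAJC8, a splicing factor, differed by 0.04, DNAJC13, an endosomal protein, by -0.008, and DNAJC24, which takes part in diphthamide synthesis, by -0.013. DNAJC9, a histone chaperone, differed by -0.17 and DNAJC5, the cysteine string protein, by -0.19. DNAJC3, also named p58IPK, an inhibitor of the kinase PERK, differed by -0.18 with overlapping arrays. DNAJC27 and DNAJC18 missed the threshold with differences of -0.23 and 0.24 (limma adjusted p = 0.074 and 0.0701). Not above background in both arrays of either line were DNAJC2, DNAJC5B, DNAJC5G, DNAJC6, DNAJC12, DNAJC15, DNAJC16, DNAJC22 and DNAJC25-GNG10, the last a read-through whose probes carry an accession of GNG10.

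**Figure D4:**
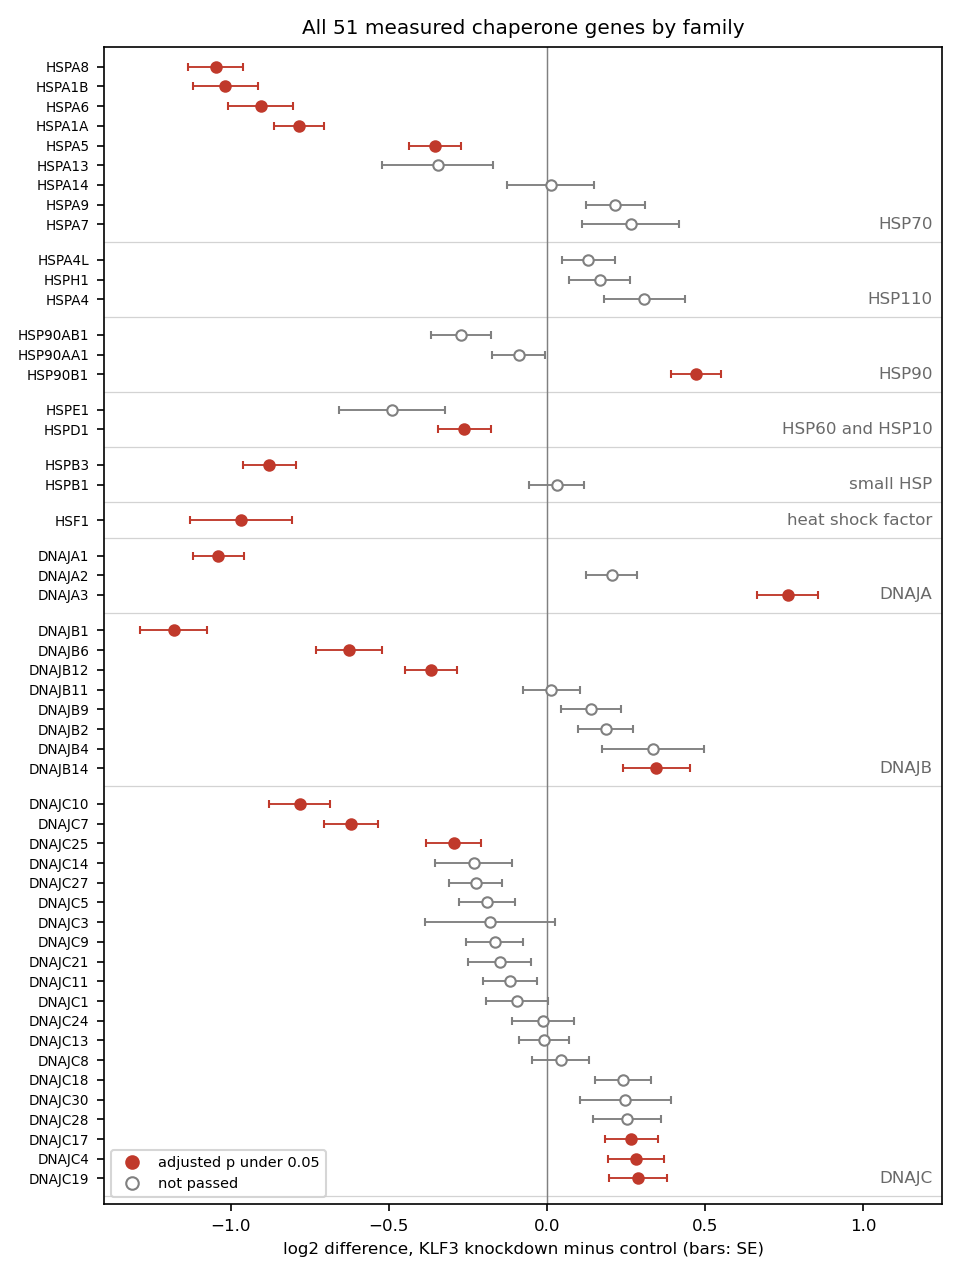
Log2 difference with SE (horizontal axis) of all 51 measured chaperone genes, grouped by family from HSP70 at the top to class C J-domain genes at the bottom; filled points passed the threshold. The differences run from -1.18 for DNAJB1 to 0.76 for DNAJA3.

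The cytosolic HSP90 genes did not pass the test. HSP90AA1, the inducible form, read 12.38 and 12.31 in the knockdown line and 12.39 and 12.48 in the control line, a difference of -0.09 (SE 0.09, limma adjusted p = 0.433). A second HSP90AA1 probe read 10.96 and 11.01 against 11.25 and 11.26, a difference of -0.28 that did not pass in the fit over all probes (limma adjusted p = 0.0504). HSP90AB1, the constitutive form, read 11.18 and 11.31 against 11.45 and 11.58, a difference of -0.27 (limma adjusted p = 0.0622), and it passed in 3 of 12 alternatives (limma adjusted p between 0.00425 and 0.265). HSP90B1, or GRP94, of the endoplasmic reticulum, read 12.64 and 12.66 in the knockdown line and 12.17 and 12.18 in the control line. It was 1.39-fold higher (log2 difference 0.47, SE 0.08, limma adjusted p = 0.00597), while HSPA5, of the same compartment, fell.

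HSPD1 and HSPE1, the HSP60 and HSP10 subunits of the mitochondrial chaperonin, lie head to head on chromosome 2. HSPD1 read 12.98 and 13.08 in the knockdown line and 13.29 on both control arrays, a difference of -0.26 (SE 0.08, limma adjusted p = 0.049). It lost its call without any 1 of the 4 arrays (limma adjusted p between 0.0516 and 0.197), and its other detected probes differed by -0.35 and -0.72. HSPE1 read 10.27 and 10.80 against 11.01 and 11.03, a difference of -0.49 that did not pass (SE 0.17, limma adjusted p = 0.0592). It passed in 7 of 12 alternatives, with limma adjusted p between 0.00163 in the authors' processed values and 0.192 without control replicate 2, so its call depends on the setting. The knockdown arrays of HSPE1 lay farther apart (SD 0.37) than its control arrays (SD 0.01). A second HSPE1 probe differed by -0.78 and did not pass in the fit over all probes (limma adjusted p = 0.0842).

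Of the small heat shock proteins, which hold unfolded proteins without ATP, 2 of 7 were measured. HSPB1, known as HSP27, read 11.71 and 11.65 in the knockdown line and 11.58 and 11.71 in the control line and did not pass (limma adjusted p = 0.806). HSPB3 read 6.59 and 6.56 in the knockdown line and 7.50 and 7.40 in the control line, 1.84-fold lower (limma adjusted p = 0.000974), or -0.465 on the log2 scale in the setting with the smallest difference. HSPB2, HSPB6, HSPB7, HSPB8 and HSPB9 were detected on no array.

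HSF1 was detected on both control arrays, at intensities of 212.1 and 182, and on neither knockdown array, at 149.3 and 150.8. As normalized here its decrease is therefore a bound, at least 1.71-fold lower (limma adjusted p = 0.00578). The normalized signals were 5.41 ± 0.10 in the knockdown line and 6.37 ± 0.34 in the control line. HSF1 was measured only through the control arrays, so it had to be the lower in the knockdown line. That adjusted p is therefore no support for a decrease. For this bound the dim arrays were set to the weakest detected signal on each, or to HSF1's own value where that was greater. The log2 difference was -0.355 without background correction and -0.717 without control replicate 1, both smaller in size than that bound. Without control replicate 2 it was -1.20.

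Each chaperone gene was set beside its neighbours on the chromosome. On chromosome 16 the 456 other measured genes had a median difference of 0.361, and both chaperone genes there were higher: DNAJA3 by 0.76, where its 20 nearest measured neighbours had a median of 0.259, and DNAJA2 by 0.21, without passing, where the neighbours had 0.373. Around HSPD1 and HSPE1 the 20 neighbours had a median of -0.589, and 17 of them fell. On the probes used, the differences of HSPD1 and HSPE1, -0.26 and -0.49, were smaller in size than that median. Another HSPD1 probe was also smaller, at -0.35. A further HSPD1 probe and the second HSPE1 probe were larger in size, at -0.72 and -0.78. DNAJB6 differed the other way from its neighbourhood on chromosome 7: 9 of 13 neighbours rose, with a median of 0.653, against -0.63 for DNAJB6. Around DNAJC10 on chromosome 2 the median was -0.257.

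The neighbours of the genes lower by the most had medians nearer to 0. These were -0.108 for HSPA8, -0.19 for DNAJB1, -0.211 for DNAJA1, -0.143 for HSPA1A and HSPA1B, -0.061 for HSPA6, -0.08 for HSF1 and 0.049 for HSPB3. HSP90B1 had neighbours at 0.014. The part of chromosome position in these differences was not tested.

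**Figure D5:**
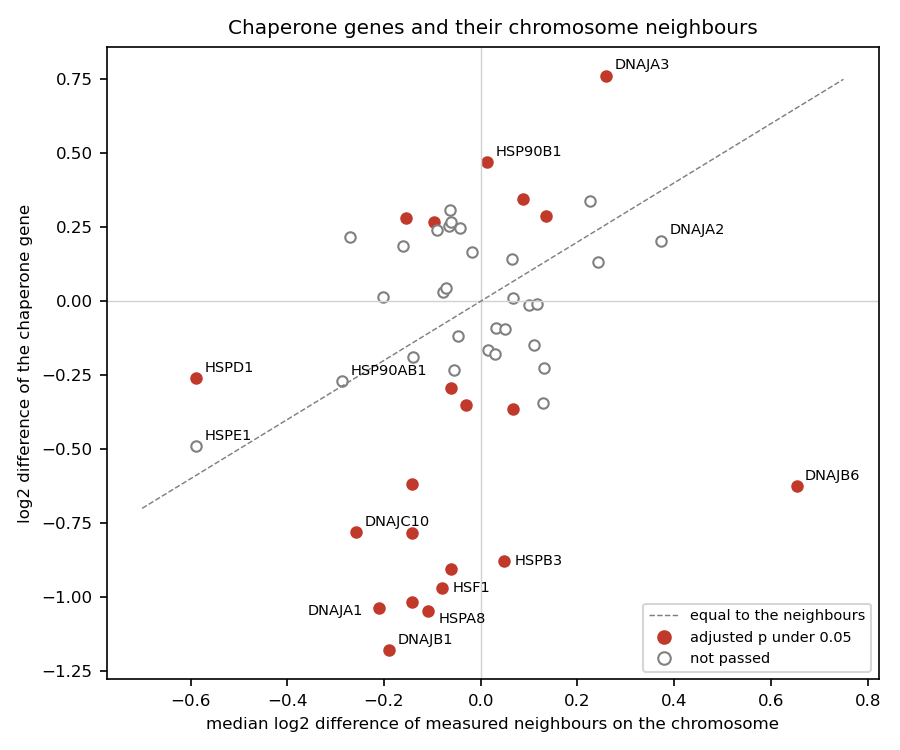
Log2 difference of each of the 51 measured chaperone genes (vertical axis) against the median log2 difference of up to 20 measured neighbours on the same chromosome (horizontal axis); the dashed line marks equality and filled points passed the threshold. HSPD1 and HSPE1 lie at a neighbour median of -0.589, DNAJB6 at 0.653, and DNAJB1, HSPA8, DNAJA1, HSPA1B, HSF1, HSPA6 and HSPB3 lie at neighbour medians between -0.211 and 0.049.

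Genes that work with the chaperones were taken from 5 lists. Of 22 measured cochaperones of HSP70 and HSP90, 7 rose and 1 fell, with a median of 0.095. Over all genes 19.4% rose and 20.7% fell, with a median of -0.015, and the counts of each list stand against those shares. BAG2, an exchange factor that blocks client ubiquitination, rose by 0.66 (limma adjusted p = 0.00353), FKBP5, an HSP90 immunophilin, by 0.54 (limma adjusted p = 0.00401), CHORDC1, an HSP90 partner, by 0.55 (limma adjusted p = 0.00955) and HSBP1, which binds HSF1, by 0.42 (limma adjusted p = 0.0125). TSC1, the gene that fell, differed by -0.41. STUB1, encoding the ubiquitin ligase CHIP, rose by 0.55. Both HSBP1 and STUB1 lie on chromosome 16, where the median was 0.361.

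Among 13 measured known heat shock factor targets outside the families, 3 rose and 1 fell, with a median of -0.056. CHORDC1, PTGES3, the HSP90 cochaperone p23, and ST13, the HSP70-interacting protein HIP, rose by 0.55, 0.44 and 0.33, and JMJD6 fell by 0.43. BAG3, a strongly heat-inducible HSP70 cochaperone, differed by -0.06 (limma adjusted p = 0.608), and the adaptor STIP1 by -0.25 (limma adjusted p = 0.0544). Of the 5 lists of related genes, 9 genes stand in 2, CHORDC1 and PTGES3 among them.

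Of 13 measured subunits of the cytosolic chaperonin TRiC and of prefoldin, 2 rose and 3 fell, with a median of 0.147. The TRiC genes CCT7 and CCT4 rose by 0.36 and 0.35, whereas the prefoldin genes VBP1, PFDN5 and PFDN6 fell by 0.57, 0.48 and 0.38. Of 17 endoplasmic reticulum genes 3 rose and 3 fell, with a median of -0.163. The disulfide isomerase genes PDIA4 and PDIA6 rose by 0.72 and 0.41, and the stress transcription factor genes DDIT3 and ATF4 fell by 0.68 and 0.36. Of 13 mitochondrial chaperones and proteases 4 rose and 3 fell, with a median of 0.121. TRAP1, the mitochondrial HSP90, rose by 1.07 (limma adjusted p = 0.000757) and PAM16, which holds a J-like domain, by 0.46, and both lie on chromosome 16. HSCB, a J-domain protein of iron-sulfur cluster assembly, rose by 0.70 and lies on chromosome 22, while the protease gene HTRA2 fell by 0.41.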

How the data were processed

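Total RNA of 4 samples was measured on Illumina bead arrays, 2 of the KLF3 knockdown line and 2 of the control line. Per the file headers, the deposited scanner table gives, for each array, every probe's mean intensity with its detection p-value; the intensities are linear and not normalized. The authors' second deposited table holds processed intensity values with the same rank order (Spearman correlation 1) and, once sorted, nearly equal values across arrays (within 0.303%, medians 138.51 to 138.53); the sources used here do not give its software. In R 4.3.3, limma 3.58.1 corrected and quantile-normalized the intensities (function neqc, offset 16, negative controls inferred from the detection p-values), and tested on the log2 scale with lmFit and eBayes, two-sided, with Benjamini-Hochberg adjustment over 9530 genes. The offset understates changes of dim genes. With 2 arrays a group, the smallest p of an exact permutation test is 0.333. Symbols came from the platform annotation through gene identifiers and assembly GRCh38.p14; all 115 chaperone probes matched, 8 probes had several symbols and 17202 none. The code was tested on simulated data. Members and lists were chosen with earlier results of these data known. Genes were named by rule: every chaperone gene past the threshold, a fixed set of main chaperones, and up to 4 changed genes of each related list with the smallest p; any other gene named was picked with its values known. Deviations of same-numbered arrays from their group means did not correlate (r = 0.009), so the replicate numbers were not taken as pairs. Alternatives were no background correction, median scaling, the authors' processed values, 2 other probe filters, the mean of probes, an intensity trend, a replicate block and leaving out each array.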

Additional observations from a re-analysis of the deposited data

How the results depend on the processing

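Of the 21 chaperone genes that rose or fell, 13 kept their direction and their side of the threshold in every alternative in which they were tested, 11 of them lower (DNAJB1, HSPA8, DNAJA1, HSPA1B, HSF1, HSPA6, HSPB3, HSPA1A, DNAJC10, DNAJB6 and DNAJC7) and 2 higher (DNAJA3 and HSP90B1); HSF1 had no value where detection on all 4 arrays was required, and without HSF1, measured only through the control arrays, 10 are lower. DNAJB12, HSPA5, DNAJC25, HSPD1, DNAJC19, DNAJB14, DNAJC17 and DNAJC4 lost their call in at least 3 of 12 alternatives, and no called gene changed sign. The cause was not tested, except that the run without a filter adjusts over 20045 genes in place of 9530. The number of chaperone genes that rose, 6 as reported, was 10 without background correction, with the authors' processed values and with an intensity trend, 2 with median scaling, 3 without a filter and 3 with the replicate block, and 2 to 4 when 1 array was left out. Those that fell numbered 11 to 17 in all alternatives, 11 to 16 of these when 1 array was left out. The median of the chaperone genes was -0.187 with median scaling and -0.013 without a filter, and -0.125 to -0.044 when 1 array was left out. Over all genes 1189 rose and 1209 fell without a filter. Leaving out 1 array gave 901 to 1599 higher and 883 to 1811 lower genes; without control replicate 1 they were 911 and 897 and without control replicate 2 they were 901 and 883. With median scaling 37.4% of all changed genes were higher in place of 48.3%, and 10.5% of the changed chaperone genes in place of 28.6%. The replicate block took the call from DNAJC17, DNAJC19, DNAJC25, DNAJC4 and HSPD1 and gave one to HSPA13 and HSPE1. Passing in at least 1 of the alternatives but not as reported were 13 chaperone genes: HSPE1 in 7, HSPA4 in 5, DNAJC28 in 4, DNAJA2, HSP90AB1 and HSPA9 in 3, HSPA13 in 2, and DNAJB4, DNAJC14, DNAJC21, DNAJC27, DNAJC30 and HSPA7 in 1. Chaperone genes that fell by at least 2-fold, 4 as reported, numbered 1 without background correction, 2 in the authors' processed values, 3 with the mean of probes, 5 with median scaling and 3 to 5 when 1 array was left out. A median of over 0.2 in size was found for the whole chromosome of 2 chaperone genes and for the nearest neighbours of 12. Signals near background limit HSF1, HSPA6, HSPA7 and HSPA13. Of these, HSPA7 was measured only through the knockdown arrays, and HSPA13, like HSF1, only through the control arrays.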
